A study of Mus musculus with 32 samples.

Results

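The genes described here are 210 long noncoding RNA (lncRNA) genes of mouse, of 10055 genes listed in any of 4 organ tables. They were chosen as genes with the biotype lincRNA (a noncoding gene lying between coding genes) or antisense (one transcribed from the strand opposite to a gene it overlaps), with a mean of at least 20 normalised read counts over the 8 libraries of an organ. A normalised count is the read count divided by one scaling factor per library. The study compared male Khk KO mice, which lack ketohexokinase, the enzyme that phosphorylates fructose in its first metabolic step, with male WT mice, to ask what fructose and KHK do to the handling of iron. Messenger-type RNA captured by its poly-A tail was sequenced in bulk from liver and from duodenum, jejunum and ileum, with 4 libraries per genotype and organ and 32 in all. The labels give neither age, strain, diet nor the design of the Khk allele, nor whether a mouse gave more than 1 organ or library, so the p-values below measure the spread between these libraries.

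The tables list a gene only if its unadjusted p-value between the genotypes was under 0.05. Every member had therefore already passed a test of Khk KO against WT in its organ, and the members' counts are set below beside those of all genes of the same table with the same minimum. The minimum kept 121 of 301 listed lncRNA genes in liver and 70 of 179 in ileum, and 33 of 68 and 36 of 140 in duodenum and jejunum. In liver the lowest mean inside it was 20.1 (Gm36738) and the highest outside it 19.7 (Gm43500). The mean covers both genotypes, so a member can pass through the genotype in which it is higher while the other lies below 20. Such genes are included in the counts of higher and lower members. The liver members comprised 63 lincRNA and 58 antisense genes by the count of their biotype. Of the 210 members, 172 were found in 1 organ, 27 in 2, 10 in 3 and 1 in all 4. Per library the liver members took 24861 to 64859 reads, the duodenum members 6394 to 16371, the jejunum members 17206 to 48152 and the ileum members 18322 to 78158.

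Long noncoding RNAs are transcripts that encode no recognised protein, and many, though not all, are spliced and polyadenylated much as messenger RNAs are. Some stay in the nucleus and build nuclear bodies or silence neighbouring genes, some serve mainly as carriers of small nucleolar RNAs or microRNAs, and many start close to the promoter of a coding gene and run the other way. For most mouse lncRNA genes, including those with clone-like names beginning with Gm or ending in Rik, no function is established.

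Promoters are printed for 4 members found in 3 or 4 organs, to show the sequence at the annotated starts of shared members. RefSeq (GRCm38.p6) held a promoter for 111 of the 210 members by symbol. Each printed promoter runs from 250 bases before to 50 bases after the start, 5′ to 3′ on the gene's strand, with every CG dinucleotide in capitals. The RefSeq start lay 15, 47 and 139 bases from the gene's start in the deposited tables for 1700001L05Rik, 2010320M18Rik and BC051226, but 2244 bases inside the table's gene for Gdap10, so the Gdap10 sequence does not describe the start that was counted.
1700001L05Rik, chr15:83367248-83367547, minus strand: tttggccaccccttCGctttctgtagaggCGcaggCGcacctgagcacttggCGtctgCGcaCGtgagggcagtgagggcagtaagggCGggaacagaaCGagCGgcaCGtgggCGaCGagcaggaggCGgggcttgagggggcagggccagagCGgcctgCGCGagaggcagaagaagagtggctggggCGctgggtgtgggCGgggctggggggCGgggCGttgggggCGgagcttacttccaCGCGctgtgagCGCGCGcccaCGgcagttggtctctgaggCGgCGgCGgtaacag
Gdap10, chr12:32823866-32824165, plus strand: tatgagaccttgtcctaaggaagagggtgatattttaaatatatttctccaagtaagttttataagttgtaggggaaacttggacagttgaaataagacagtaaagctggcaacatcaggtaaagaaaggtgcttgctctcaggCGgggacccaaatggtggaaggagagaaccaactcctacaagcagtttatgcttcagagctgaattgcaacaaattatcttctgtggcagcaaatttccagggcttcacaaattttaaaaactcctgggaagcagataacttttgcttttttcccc
2010320M18Rik, chr8:70776612-70776911, plus strand: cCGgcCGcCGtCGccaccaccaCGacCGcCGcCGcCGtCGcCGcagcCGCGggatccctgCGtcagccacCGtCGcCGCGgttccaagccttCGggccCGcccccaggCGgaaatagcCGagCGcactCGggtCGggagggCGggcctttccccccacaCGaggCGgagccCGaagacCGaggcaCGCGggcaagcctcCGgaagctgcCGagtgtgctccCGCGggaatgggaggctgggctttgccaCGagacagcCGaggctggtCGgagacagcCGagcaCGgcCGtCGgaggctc
BC051226, chr17:33909129-33909428, minus strand: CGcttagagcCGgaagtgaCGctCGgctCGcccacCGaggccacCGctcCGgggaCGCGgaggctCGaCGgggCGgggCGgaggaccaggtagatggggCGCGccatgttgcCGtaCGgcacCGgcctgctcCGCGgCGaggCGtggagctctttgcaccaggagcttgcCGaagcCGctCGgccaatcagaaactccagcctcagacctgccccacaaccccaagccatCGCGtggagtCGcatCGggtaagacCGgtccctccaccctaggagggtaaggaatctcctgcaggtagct
CG dinucleotides are frequent in CpG-island promoters, which often fire in both directions. The promoter of 2010320M18Rik held 43 CG dinucleotides, more than 97.5% of the 27025 RefSeq mouse promoters of the same length. Those of BC051226 and 1700001L05Rik held 31 and 30, and that of Gdap10 held 1, with 85.4% of promoters holding more. Over the 111 members with an entry the median was 9, against 7 over all promoters. The letters TATAA, searched on both strands, occurred at 1 place in the Gdap10 sequence, where both strands match, in none of the other 3 printed, in 17.1% of the members' promoters and in 25.5% of all promoters.

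The Khk gene itself, the check of the genotype, was lower in Khk KO in all 4 organs, at 4.59% of the WT mean in duodenum, 6.65% in ileum, 9.25% in jejunum and 11.1% in liver, and no Khk KO library reached the lowest WT library in any organ. WT replicate 1 stood apart from the other 3 WT libraries in the gut. For 72.0% of listed genes in duodenum, 68.1% in jejunum and 57.3% in ileum it was the WT library farthest from the WT median, and for 45.6% in liver. Among the members it was the farthest for 23 of 33, 24 of 36, 34 of 70 and 30 of 121 in the same order of organs. Results that rest on it are given with and without it. Of the 6 hepatocyte markers, 3 were listed in liver, with summed normalised counts of 237999 to 257173 in Khk KO and 258773 to 392840 in WT, 1 marker higher and 2 lower. In ileum 3 of the 6 enterocyte markers were listed, all lower in Khk KO, with sums of 16379 to 24722 against 29505 to 53579, in jejunum 2 (1 higher and 1 lower), and in duodenum none, so that organ's label was not checked. Markers of blood cells were listed lower in Khk KO, and few of them passed edgeR's test outside the liver erythroid genes. In liver all 5 erythroid genes of the marker list were lower in Khk KO, with sums of 2967 to 3515 against 4584 to 10959 in WT, and listed lower too were the 3 listed Kupffer cell markers of 4, at 2134 to 3326 against 2541 to 7596, and the 3 listed leukocyte markers of 6, at 1693 to 2088 against 2074 to 4381. In ileum the 3 listed leukocyte markers were lower, at 58442 to 115074 against 123689 to 157595, as were 2 of 4 goblet cell markers (57891 to 77984 against 77492 to 89615) and the Paneth cell marker Lyz1 (59039 to 83818 against 91726 to 105531). The goblet marker listed in duodenum, Clca1, was higher (0.39), and that in jejunum, Tff3, lower (-0.52). Every listed erythroid gene was lower in the gut too, 4 in duodenum at 315 to 985 against 821 to 1780, 4 in jejunum at 389 to 719 against 532 to 1543, and 3 in ileum at 177 to 363 against 376 to 737. edgeR called all 5 erythroid genes in liver, 1 in ileum and none in duodenum or jejunum. It called 1 Kupffer and 1 leukocyte marker in liver, and none of the leukocyte, goblet or Paneth markers in ileum. No listed marker of these lists was at 0, and their part in the lncRNA results was not tested. In bulk tissue, fewer cells of a type and less RNA per cell cannot be told apart.

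In liver, lncRNA genes were mostly higher in Khk KO. Of the 121 members, 88 were listed higher (72.7%), against 49.4% of all listed genes at the same minimum, and the median log2 fold change (Khk KO against WT, positive when higher in Khk KO) was 0.97 for the members and -0.28 for all genes. edgeR's quasi-likelihood test called 42 members at an adjusted p under 0.05, of which 35 rose and 7 fell, where 49.5% of all listed genes were called, 23.0% higher and 26.5% lower. The members' share of calls was thus lower than that of all genes, while their direction was more one-sided. In the authors' deposited table an adjusted p under 0.05 was given to 80 members, 65 of them higher and 15 lower, against 72.5% of all genes. The 4 Khk KO libraries did not overlap the 4 WT libraries for 64 members (51 higher, 13 lower), against 66.4% of all genes (31.9% higher). The edgeR count fell to 7 without Khk KO replicate 2, 11 without Khk KO replicate 1 or 4, 17 without Khk KO replicate 3, 16 without WT replicate 2 and 12 without WT replicate 4, and was 63 (52.1%) without WT replicate 1, where 85.3% of all genes were called. For the other runs the share of all genes is not given here, so these drops cannot be read as particular to the members.

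In ileum 47 of 70 members were listed higher (67.1%), against 48.4% of all genes, with medians of 0.74 and -0.30 on the log2 scale. There edgeR called 14 members, 8 higher and 6 lower, against 33.6% of all listed genes (22.0% higher, 11.6% lower), and the adjusted p of the authors' deposited table was under 0.05 for 32, against 53.2%. Genotypes did not overlap for 38 members, 26 higher and 12 lower, against 68.3% of all genes (35.9% higher). The ileum count lay between 1 and 5 when any one of the 4 Khk KO libraries or WT replicates 2 or 3 was left out, the lowest being without Khk KO replicate 2, and rose to 26 (37.1%, against 54.0% of all genes) without WT replicate 1 and 23 without WT replicate 4. Shares of all genes are again not given for the other runs. Of the antisense members 30 of 38 were higher (78.9%), and of the lincRNA members 17 of 32 (53.1%), a difference that was not tested.

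In duodenum and jejunum no member passed an adjusted p of 0.05 by edgeR, which called 0.0737% of all listed genes in duodenum and 0.0509% in jejunum, or in the authors' deposited tables, where 2.58% and 3.82% of all genes passed. At an unadjusted p under 0.05 edgeR gave 26 of 33 and 26 of 36 members, against 875 of 1357 and 1693 of 1964 of all listed genes. DESeq2's Wald test called none in duodenum and 1 in jejunum, Slc13a2os, an antisense partner of the citrate transporter gene Slc13a2, at a log2 fold change of 1.10. In jejunum 23 members had an adjusted p of 1 in the authors' deposited table, a value given there only to genes under a minimum mean and read here as not adjusted. The members were listed higher in 15 of 33 cases in duodenum (45.5%, against 40.8% of all genes) and in 23 of 36 in jejunum (63.9% against 49.6%). Genotypes did not overlap for 14 members in duodenum, 8 of them higher (46.1% of all genes, 19.4% higher), and for 10 in jejunum, 8 of them higher (57.5% of all genes, 30.4% higher).

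Nuclear and structural lncRNAs formed the one group of characterised genes with many members. The list holds 23 names of genes that build nuclear bodies, regulate imprinted or X-linked domains, or act as abundant decoys. A gene can stand under more than 1 name, as Norad does with 2900097C17Rik. In liver 10 were members, all 10 were listed higher, 7 rose by edgeR (Malat1, Neat1, Lncpint, Kcnq1ot1, Meg3, 1700020I14Rik and Tug1), and the median log2 fold change was 1.05. Of all listed liver genes at the minimum, 49.4% were higher and 23.0% were called higher. In ileum 5 were members, all listed higher with a median of 0.52, and 3 rose (2900097C17Rik, 1700020I14Rik and Tug1). The shares of all listed ileum genes were 48.4% higher and 22.0% called higher. The list was chosen with earlier results of these data known, and the direction of its members is a description. Most of these genes are long, and longer listed genes were mostly higher in Khk KO, as described below. Of listed coding genes with 6000 exon bases or more, 91.6% were higher in liver and 91.9% in ileum.

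Malat1 (chr19:5795690-5802672, minus strand, a lincRNA gene), whose RNA localises to nuclear speckles, had the highest level per length of all members in liver, at a mean of 222 FPKM (fragments scaled to gene length and library size), and also led in jejunum at 193 and in ileum at 221. Its normalised counts in liver were 26826, 29923, 28340 and 35552 in the Khk KO libraries and 10740, 5486, 3641 and 5526 in the WT libraries. The lowest Khk KO library lay above the highest WT library. The log2 fold change was 2.25 (SE 0.28, adjusted p = 0.00624 by edgeR), and 1.79 with the length trend taken out. In ileum Malat1 stood at 39208, 52049, 40399 and 39992 in Khk KO and 5828, 26343, 22509 and 30875 in WT, again with no overlap, and did not pass the test (log2 fold change 1.00, adjusted p = 0.116 by edgeR). WT replicate 1 was far below the other WT libraries there: without it the difference was 0.69 and the adjusted p 0.00779. In jejunum one Khk KO library, at 13300, fell among the WT values of 11463 to 21255, while the other 3 lay between 33147 and 36834.

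Neat1 (chr19:5824708-5845478, minus strand), the RNA scaffold of paraspeckles, lies near Malat1 on the same strand. Its liver counts were 1957, 2500, 1822 and 2213 in Khk KO and 600, 874, 640 and 886 in WT. Every Khk KO library was above every WT library, the means differed 2.83-fold, and the adjusted p was 0.00578 by edgeR. Taking out the length trend left a log2 fold change of 0.26, which did not pass the test.

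Lncpint (chr6:31082565-31220488, minus strand), an RNA known to be induced by p53, stood at 83.4, 160, 94.0 and 204 in Khk KO livers and 52.5, 24.9, 40.1 and 38.0 in WT livers. It rose by 1.80 on the log2 scale, and the groups did not overlap. Kcnq1ot1 (chr7:143203458-143296549, minus strand), which silences an imprinted domain on the paternal chromosome, had 117, 91.4, 90.4 and 113 in Khk KO and 49.3, 54.1, 25.0 and 25.6 in WT. Meg3 (chr12:109541001-109571726, plus strand), an imprinted RNA expressed from the maternal chromosome, had 155, 114, 91.6 and 127 against 41.6, 74.7, 56.7 and 50.3. Both of these imprinted genes were higher in every Khk KO library than in any WT library, with log2 fold changes of 1.43 and 1.13. After removal of the length trend these values turned to -0.47 for Kcnq1ot1 and -0.05 for Meg3, and Lncpint kept 1.22 (adjusted p = 0.056 by edgeR).

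1700020I14Rik, the mouse Cyrano RNA, which directs the decay of miR-7, stood at 1632 to 1738 in the 4 Khk KO livers and 832, 1058 and 1463 in 3 WT livers and lower in the fourth, a rise of 0.70 (SE 0.19). In ileum it stood at 2873 to 3100 against 1556 to 2547, a rise of 0.52. Both comparisons were free of overlap, and with the length trend taken out the values were 0.07 and 0.05. 2900097C17Rik, the mouse Norad RNA, which binds Pumilio proteins, stood at 2485, 2609, 2713 and 2818 in Khk KO ileum and 1842, 1904, 1990 and 1962 in WT ileum. The 2 groups were even within themselves and did not overlap, and the rise of 0.46 (SE 0.10, adjusted p = 0.0198 by edgeR) was 0.39 with the length trend taken out (adjusted p = 0.0273). In liver the same gene did not pass the test (0.56, adjusted p = 0.0838), and WT replicate 1, at 1908, lay among the Khk KO values of 1725 to 1971.

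Tug1 (chr11:3639785-3649673, minus strand) was listed higher in liver (0.86), duodenum (0.29) and ileum (0.40). It passed edgeR's test in liver and ileum, and the groups did not overlap in any of the 3 organs. In ileum its counts were 1905, 1715, 2012 and 1959 against 1580, 1267, 1420 and 1491. Corrected for the length trend it was 0.15 in liver, -0.01 in duodenum and -0.14 in ileum. Jpx and Ftx, 2 noncoding genes of the X-inactivation centre, were listed higher in liver with log2 fold changes of 0.96 and 0.74, overlapped between genotypes and did not pass the test (adjusted p = 0.167 and 0.173). Miat in ileum, at 0.80 with an adjusted p of 0.131, did not pass either. On the same list but with another biotype, Firre and Rian were also listed higher in liver, at 0.80 (adjusted p = 0.0306 by edgeR) and 1.56 (adjusted p = 0.0394).

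**Figure D1:**
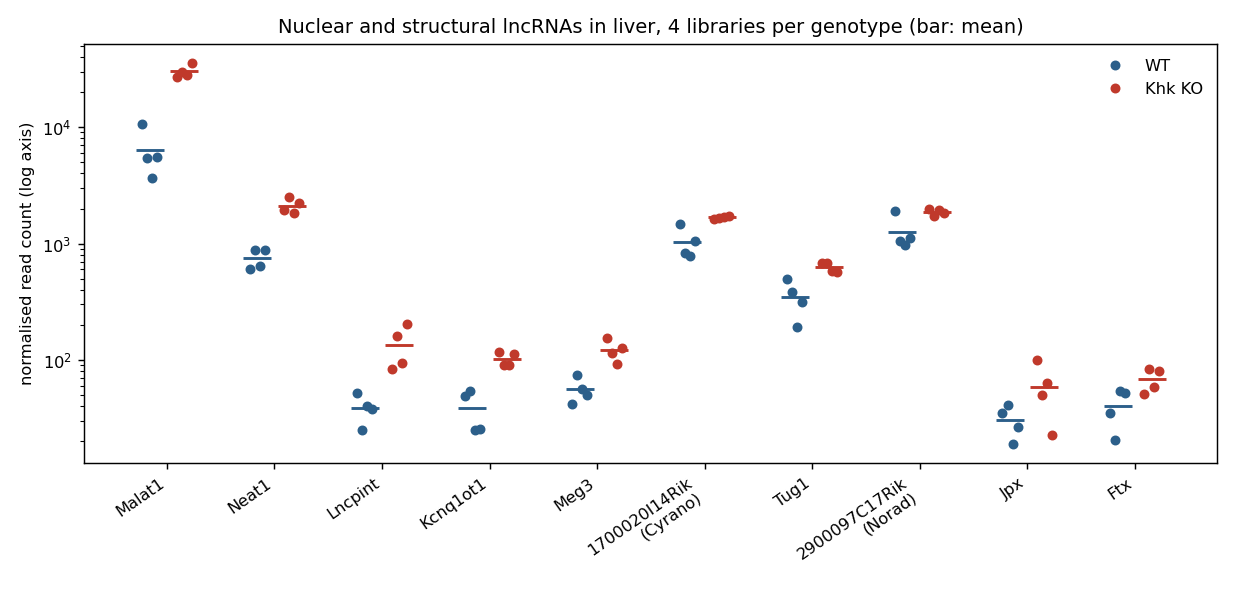
Normalised read counts (log axis) of the 10 nuclear and structural lncRNA members in liver, one point per library, WT in blue and Khk KO in red, with bars at the mean of 4 libraries. For Malat1 the 4 Khk KO libraries sit between 26826 and 35552 and the WT libraries between 3641 and 10740, while Jpx, Ftx and 2900097C17Rik overlap between genotypes.

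Hosts of small nucleolar RNAs, whose introns carry the guides of ribosomal RNA modification, gave few members. Of the 20 on the list, 2 were members in liver and both were listed lower. Epb41l4aos fell by 1.08 on the log2 scale (SE 0.25, adjusted p = 0.0219 by edgeR), with 48.9, 51.2, 89.2 and 72.7 in Khk KO against 116, 127, 171 and 137 in WT. The groups did not overlap, and the gene is short, with 430 exon bases. Its difference after removal of the length trend was -0.27 and did not pass the test. Snhg12 stood at -0.78 in liver (adjusted p = 0.0922) and -0.58 in duodenum (adjusted p = 0.838). Among list genes with another biotype, Zfas1 fell in liver (-1.17, adjusted p = 0.0419 by edgeR), and Snhg8 was listed lower in liver (-0.55) and duodenum (-0.60) without passing, while Snhg11, listed as coding, rose in liver (0.89, adjusted p = 0.0470) and ileum (0.93, adjusted p = 0.0344).

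Of the 12 listed microRNA hosts only Mir142hg was a member, in ileum. A search by coordinates found 5 members whose gene body holds mature microRNAs on the same strand: Meg3, 6720427I07Rik and Ftx in liver, and Dnm3os and Mir142hg in ileum. Their main mature microRNAs from RefSeq (GRCm38.p6) are printed with the seed, bases 2 to 8, in capitals. The libraries of polyadenylated RNA did not measure the microRNAs themselves.
miR-770-5p, in Meg3: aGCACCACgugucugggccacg
let-7d-5p, in 6720427I07Rik: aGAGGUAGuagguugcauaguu
miR-374b-5p, in Ftx: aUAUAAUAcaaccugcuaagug
miR-199a-5p, in Dnm3os: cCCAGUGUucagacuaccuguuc
miR-199a-3p, in Dnm3os: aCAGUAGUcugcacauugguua
miR-214-3p, in Dnm3os: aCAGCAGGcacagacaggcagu
miR-142a-5p, in Mir142hg: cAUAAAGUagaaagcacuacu
miR-142a-3p, in Mir142hg: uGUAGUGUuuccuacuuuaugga
No 2 of the 14 mature microRNAs found in the 5 hosts shared a seed. Mir142hg (chr11:87755577-87757270, plus strand), the host of a microRNA of blood cells, stood at 39.9, 45.0, 43.7 and 16.4 in Khk KO ileum and 42.3, 101, 40.4 and 144 in WT ileum. The groups overlapped, and the difference of -1.18 did not pass edgeR's test (adjusted p = 0.12). The 3 listed leukocyte markers were lower in the same organ, as given above. Dnm3os, which runs against Dnm3 and carries the miR-199a and miR-214 cluster, was listed higher in ileum, at 41.4, 72.1, 67.3 and 90.6 against 16.2, 33.2, 29.0 and 53.8, with an adjusted p of 0.102. 6720427I07Rik had 85.4, 11.0, 42.8 and 12.7 in Khk KO livers and 5.47 to 19.5 in WT livers, with overlap and an adjusted p of 0.121. These 2 hosts were named after their values were seen.

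The largest rises in liver were in genes with no established function. Rapgef4os3 (chr2:72244965-72248975, minus strand), antisense to the gene of a cAMP-activated exchange factor, had 319, 394, 345 and 309 normalised counts in Khk KO and 62.4, 22.7, 26.5 and 51.2 in WT. This was an 8.40-fold difference of the means with wide separation, and the log2 fold change of 3.08 (SE 0.30) had the lowest adjusted p of all liver members (0.00288 by edgeR). Gdap10 (chr12:32821872-32826904, plus strand) stood at 141, 184, 206 and 167 against 29.6, 8.66, 25.0 and 19.9, also 8.40-fold. Gm26584 (chr8:40862395-40865647, minus strand) stood at 181, 295, 342 and 531 against 62.4, 31.4, 52.9 and 42.7. None of these 3 overlapped between genotypes, and after removal of the length trend they differed by 3.34, 2.91 and 3.17. Gm43660, Malat1 and Gm44117 followed by the naming rule, at 2.48, 2.25 and 2.23 on the log2 scale. Gm43660 and Gm44117 had WT means of 7.51 and 11.7, below the minimum of 20, and passed it through the Khk KO libraries. Gm44117 had low counts, 35.7 to 81.5 in Khk KO and 15.1 to 16.1 in 3 WT libraries, and none in the fourth WT library, replicate 3.

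The falls named by the rule in liver were smaller in size. BC051226 fell by 1.41 (SE 0.35, adjusted p = 0.0243 by edgeR), from 31.7, 64.9, 59.7 and 38.0 in WT to 16.3, 17.1, 21.4 and 18.2 in Khk KO. Gm26917 (chr17:39843013-39846341, plus strand) fell by 1.18 (SE 0.14, adjusted p = 0.00589), from 4061, 4782, 3760 and 3475 to 1691, 1872, 1564 and 1980. Both separated fully, and Gm26917 was one of the most abundant members, at a mean of 68.9 FPKM in duodenum, the highest there. The Gm26917 difference was -0.86 after removal of the length trend and still passed in liver (adjusted p = 0.0116), while BC051226, at -0.67, did not. 2310040G24Rik fell by 1.03. Gm44787 and Gm30025, at -1.24 and -0.95, were below 0.05 in the authors' deposited table (0.0309 and 0.0325) but not by edgeR (0.0547 and 0.064).

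In ileum the largest rise was again that of Gdap10, with 141, 76.6, 125 and 67.4 in Khk KO and 0, 30.5, 8.29 and 20.7 in WT (log2 fold change 2.73, SE 0.64, adjusted p = 0.0283 by edgeR). Gm16185 followed at 2.62, with 42.9, 86.5, 89.7 and 49.1 against 19.9, 3.59, 2.07 and 18.6. Gm15674 had 130, 79.3, 106 and 179 against 16.2, 8.08, 47.7 and 19.7, a rise of 2.43 with the lowest adjusted p of the ileum members (0.0146). All 3 separated fully but rest on low WT counts. Gm47469 and Gm12359 rose by 2.25 and 1.83, and Gm38155, at 2.01, had an adjusted p of 0.0673 by edgeR. Their WT means were 7.20, 11.7 and 12.7, below the minimum of 20, so they passed it through the Khk KO libraries. Of the exon bases of Gm15674, 50.5% lie opposite exons of other genes, mainly of the member Gm15675. Gm15675 had a mean of 407 against 73.3 for Gm15674 and was not called (0.81, adjusted p = 0.197 by edgeR). For Gm12359 the share is 40.9%, mainly opposite Casc3. Whether the libraries kept strand is not known, so such reads cannot be told apart. The ileum members that fell were Gm7932 (-1.43), BC051226 (-1.19), 2010320M18Rik (-1.01), Tbx3os2 (means of 41.4 in Khk KO and 82.2 in WT), Gm10522 (-0.88) and Gm13375 (-0.83). Of these, Gm10522 was the most even among Khk KO libraries, at 97.4, 93.7, 98.0 and 94.4 against 242, 150, 201 and 114 in WT. None of the 6 passed the test with the length trend taken out, whereas Gm15674, Gm16185, Gm47469, Gm12359, 2900097C17Rik and Adap2os did.

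At a given exon length, the listed lncRNA genes and the listed coding genes differed in direction. Among listed coding genes, those with short exon length were mostly lower in Khk KO and those with long exon length mostly higher, in every organ. In liver 1.69% of 178 coding genes under 1000 bases were listed higher, 4.49% of 1536 from 1000 to under 3000 bases, 42.7% of 1409 from 3000 to under 6000 bases, and 91.6% of 2017 at 6000 bases or more. The liver members gave 17 of 31 (54.8%), 31 of 46 (67.4%), 27 of 31 (87.1%) and 13 of 13 in the same classes. At 6000 bases or more members and coding genes were thus nearly alike, and under 3000 bases they were far apart: 62.3% of 77 members against 4.20% of 1714 coding genes.

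In ileum the members gave 8 of 14 (57.1%), 17 of 30 (56.7%), 13 of 17 (76.5%) and 9 of 9, against 1.69%, 5.28%, 40.7% and 91.9% of coding genes. Under 3000 bases, 11 of 23 jejunum members were higher (47.8%) against 7.51% of coding genes, and 7 of 24 duodenum members (29.2%) against 11.6%. The gap was therefore widest in liver and ileum and narrowest in duodenum. Members had lower counts than coding genes, with a median mean of 56.3 against 468 in liver. Among coding genes with a mean under 200, a limit set after seeing the data, 3.92% under 1000 bases and 8.74% from 1000 to under 3000 bases were higher in liver, and 8.57% and 19.9% in ileum. The liver members with a mean under 200 gave 17 of 29 and 29 of 42 in these classes, and the ileum members 8 of 13 and 17 of 27. No test was made of this difference, since the members and the coding genes were both listed for having changed.

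**Figure D2:**
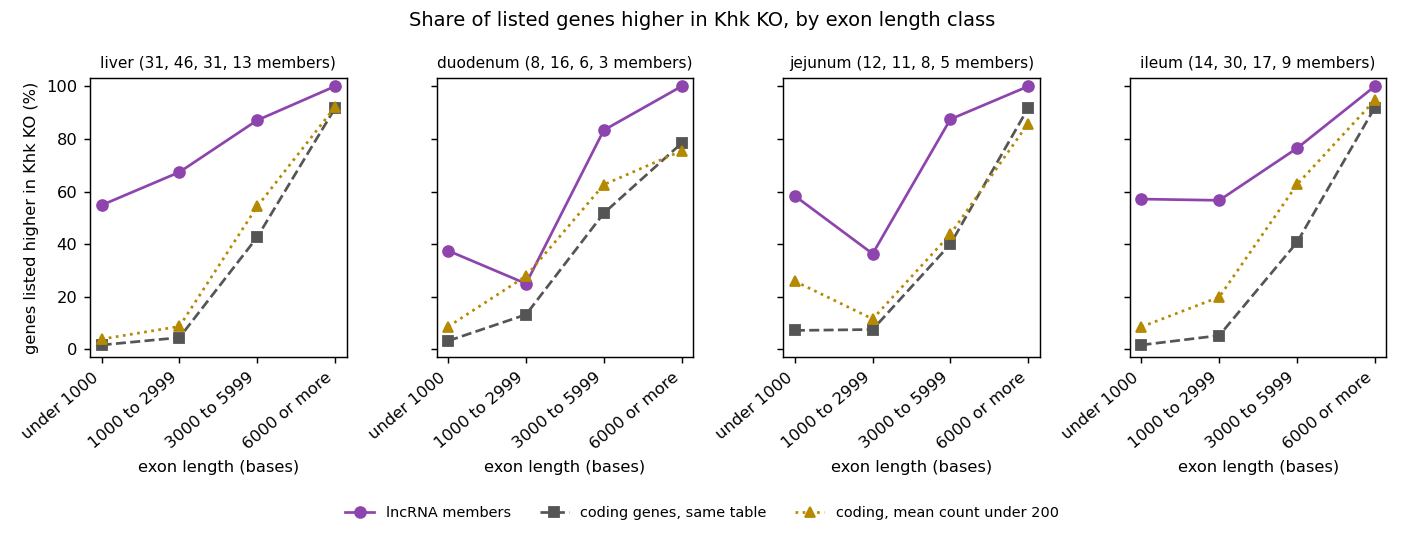
Percent of listed genes with a higher mean in Khk KO (vertical axis) in 4 classes of exon length in bases (horizontal axis), one panel per organ, for lncRNA members (circles), all listed coding genes past the same minimum (squares) and the coding genes with a mean under 200 (triangles). In liver and ileum the members under 1000 bases stand at 54.8% and 57.1%, and coding genes at 1.69% in both.

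When each library's trend with gene length was taken out, the direction of the liver members became more one-sided. There 47 members were called by edgeR, of which 46 were higher, against 13.1% of all listed genes (6.09% higher), and 25 of them were among the 42 called before. The median log2 fold change of the liver members was 1.34, against -0.01 for all genes. The trend was fitted on the listed genes, most of them coding, among which short genes were mostly lower. Taking it out thus raised the values of short genes. The liver members were shorter than all listed genes (median of 2167 against 4350 bases), so the direction after this step is in part built in. In ileum 6 members were called, all higher, against 9.86% of all genes (4.64% higher), 5 of them among the 14 called before, and the median was 0.60 against -0.02. The short members that rose, such as 9030622O22Rik (1682 exon bases, 0.97 before and 1.59 after), gained by this step, and the long ones, such as Neat1, Meg3 and Kcnq1ot1, lost. 9030622O22Rik was named after its values were seen.

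Members shared between organs had the same direction in each. Liver and ileum shared 19, which were 15.7% of the liver and 27.1% of the ileum members, 15 higher in both and 4 lower in both. Jejunum and ileum shared 13, liver and duodenum 11, duodenum and ileum 8, duodenum and jejunum 7, and liver and jejunum 5, and all kept their direction. Coding genes shared between 2 organs kept direction in 96.1% to 100% of cases. The organs used separate libraries, but it was not given whether one mouse gave several organs. Most members were listed in 1 organ alone: 96 liver, 42 ileum, 18 jejunum and 16 duodenum members.

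1700001L05Rik (chr15:83353847-83367282, minus strand), a lincRNA gene of unknown function, was the only member in all 4 organs. In liver it stood at 271, 304, 236 and 263 in Khk KO and 197, 145, 116 and 135 in WT, with a log2 fold change of 0.86 (SE 0.19, adjusted p = 0.0205 by edgeR). In duodenum it had 172, 159, 150 and 172 against 89.6, 117, 117 and 142. These 2 organs showed no overlap. In jejunum and ileum the groups overlapped, with differences of 0.56 and 0.46, and without WT replicate 1 the gut values were 0.38 in duodenum, 0.43 in jejunum and 0.35 in ileum.

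Gdap10, Malat1, Gm37494, Etohd2 and Tug1 were higher in the 3 organs where each was a member. Gdap10 in jejunum had 70.2, 70.8, 82.9 and 117 in Khk KO and 0, 61.6, 17.8 and 47.8 in WT, a difference of 1.41 with an SE of 0.80 that did not pass (adjusted p = 0.524 by edgeR). Without WT replicate 1 it was 1.00 there, 3.24 in liver and 2.35 in ileum. Gdap10 lies inside the body of Nampt, the gene of the rate-limiting enzyme of NAD salvage, on the same strand and sharing no exon bases with it. Reads of unspliced Nampt transcripts and of Gdap10 cannot be told apart in these counts. Etohd2, antisense, stood at 1.52 in liver (called), 0.81 in duodenum and 0.63 in ileum. Gm37494, with 16543 exon bases, stood at 0.88, 0.39 and 0.37 in liver, jejunum and ileum, and at -0.17, -0.15 and -0.33 with the length trend taken out.

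BC051226, 2010320M18Rik, Gm26917, 2810001G20Rik and Tmem250-ps were lower in the 3 organs where each was a member. 2010320M18Rik (chr8:70776815-70777823, plus strand) had a mean of 75.6 ± 13.7 (SD, n = 4) in Khk KO livers and 113, 122, 195 and 111 in WT livers, a fall of 0.84 without overlap. In ileum it had 102, 82.9, 56.7 and 68.4 against 242, 134, 127 and 127. WT replicate 1 was far above the others there, and without it the difference went from -1.01 to -0.73 with an adjusted p of 0.0519. In duodenum the same library stood at 262 against 114, 141 and 114, and leaving it out moved the difference from -0.69 to -0.33. After removal of the length trend 2010320M18Rik stood at -0.39 in ileum, -0.15 in duodenum and -0.10 in liver.

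The 2810001G20Rik difference depended on the same library most. In jejunum WT replicate 1 was at 202 and the other WT libraries at 44.0, 53.5 and 56.2, against 37.7, 44.5, 39.6 and 28.5 in Khk KO. Without it the jejunum difference moved from -1.24 to -0.44, the duodenum difference from -0.63 to -0.30 and the ileum difference from -0.67 to -0.39. For Tmem250-ps the values without it were -0.24, -0.23 and -0.20 in duodenum, jejunum and ileum, against -0.37, -0.41 and -0.42 with it, and for BC051226 in duodenum -0.45 against -0.94. Gm26917 in duodenum was uneven in WT, at 9204, 3812, 10765 and 2343, and overlapped the Khk KO values of 2554 to 3344. Correcting for gene length shrank the falls of these genes. It left -0.11, -0.57 and -0.06 for 2810001G20Rik in duodenum, jejunum and ileum, and -0.10, 0.01 and 0.03 for Tmem250-ps. BC051226 kept -0.67 in liver, -0.37 in duodenum and -0.62 in ileum, and Gm26917 -0.86, -1.04 and -0.60.

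**Figure D3:**
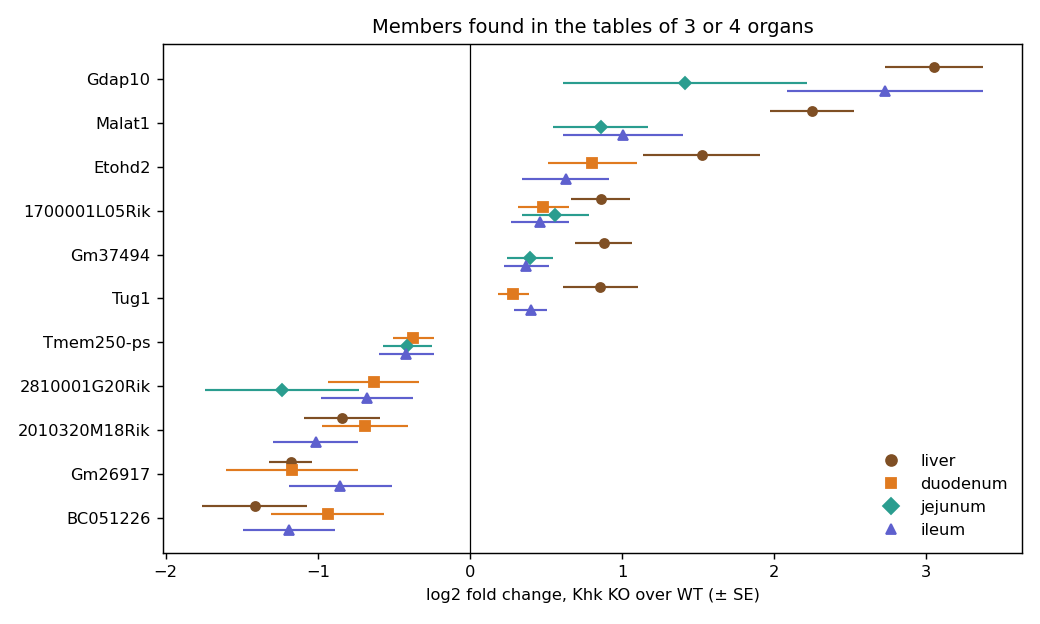
Log2 fold change, Khk KO against WT, with its SE (horizontal axis) for the 11 members found in the tables of 3 or 4 organs (rows), by organ. Each member lies on one side of 0 in every organ where it is listed, from 3.05 for Gdap10 in liver to -1.41 for BC051226 in liver.

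Because antisense and bidirectional lncRNAs are read from the same locus as a coding gene, each member was set beside its nearest coding gene. Within 50000 bases 114 of 121 liver members had such a gene, and 51 of these neighbours (44.7%) were listed in the liver table, against 35.1% for the nearest coding neighbour of listed coding genes. Of the 51 pairs 35 had the same direction (68.6%, exact 95% binomial interval 54.1% to 80.9%), against 58.2% of coding pairs. The 35 comprised 27 pairs with both higher and 8 with both lower, and 12 of the other pairs had a higher lncRNA beside a lower coding gene. In ileum 15 of 23 pairs had the same direction (65.2%, interval 42.7% to 83.6%), against 73.5% of coding pairs, in jejunum 6 of 10 and in duodenum 3 of 4. The intervals cover counting error only and treat the pairs as independent, and no difference from coding pairs was tested. The pairs share the length trend, some share exon bases, and Rapgef4 is the neighbour of 2 members.

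The direction of the members was also counted by their arrangement on the chromosome, without a test. In liver 59 members overlapped their coding neighbour on the opposite strand and 47 of them were listed higher, while 16 started within 5000 bases of the coding gene and ran away from it, of which 6 were higher and 10 lower. In ileum the counts were 31 higher of 38 overlapping members and 1 higher of 6 divergent ones. The 23 overlapping liver members that share no exon base with the neighbour were higher in 20 cases, and the 36 that share some in 27. In ileum this split was 10 of 14 without and 21 of 24 with shared bases, in jejunum 2 of 5 and 11 of 14, and in duodenum 1 of 5 and 5 of 7, so that outside liver the larger share of higher members was among those sharing exon bases. Whether the libraries kept strand is not known, so for members that share exon bases the reads of the 2 strands cannot be told apart. For overlapping members that share none, reads of unspliced transcripts of the coding gene could be counted too, and this was not tested.

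Among overlapping pairs, Gm26584 and Slc7a2, the gene of a cationic amino acid transporter, both rose in liver. Slc7a2 had 20279, 18432, 20757 and 28074 in Khk KO and 13044, 11408, 6923 and 12254 in WT, a rise of 1.00 against 2.83 for Gm26584. The starts lie 3251 bases apart and the genes share 635 exon bases. Slc7a2 kept 0.31 after removal of the length trend. Ctcflos rose by 1.26, from 274, 249, 212 and 288 to 553, 615, 656 and 628. Its opposite-strand neighbour Ctcfl, a paralogue of the insulator factor gene Ctcf, rose by 1.59. They share 171 exon bases, and Ctcfl had lower counts, with means of 135 in Khk KO and 45.2 in WT. Tug1 and Morc2a, with starts 482 bases apart and 483 shared exon bases, both rose in liver (0.86 and 0.66, or 0.15 and 0.30 after that correction). Rapgef4os3 shares no exon bases with Rapgef4, which stood at 0.45 (adjusted p = 0.0595 by edgeR), far below the 3.08 of the antisense gene. Rapgef4 had means of 5075 in Khk KO and 3725 in WT. If strand was not kept, reads of its unspliced transcripts cannot be told apart from those of Rapgef4os3.

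Divergent pairs went both ways. 2010320M18Rik starts 102 bases from Pik3r2, a regulatory subunit of phosphoinositide 3-kinase, in the CG-rich promoter printed above. Both fell in ileum, Pik3r2 from 1599, 1607, 1593 and 1669 to 1207, 1162, 1244 and 1169, a fall of 0.44 (SE 0.09, adjusted p = 0.0192 by edgeR). In liver Gm4285 and Tpt1 were both lower (-0.99, not called, and -0.63, called), 5031425E22Rik and Kmt2e both higher (0.67, not called, and 1.40, called), and Fam120aos, Gm34934 and 2810414N06Rik lower (-0.56, -0.53 and -0.81, none called) beside Fam120a, Samd4 and Edem3, which rose (0.59, 1.23 and 1.07). Corrected for gene length, the coding genes stood at -0.35 for Pik3r2 in ileum, and in liver at -0.09 for Tpt1, 0.66 for Kmt2e, 0.43 for Fam120a, 0.58 for Samd4 and 0.69 for Edem3, and Fam120aos turned to 0.03. BC051226 starts 97 bases from Daxx, a histone chaperone gene, and 2810001G20Rik 16 bases from Cox10, a gene of heme A synthesis. Neither coding gene was among those with an unadjusted p under 0.05 in the organs where the lncRNA was a member.

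Pairs lying apart also differed. D930016D06Rik, 3124 bases from BC005561 on the same strand, rose in liver by 1.45, from 102, 83.3, 62.8 and 84.5 to 241, 244, 231 and 191, and BC005561 by 2.21. 9030622O22Rik, 2674 bases from Foxa2, the gene of a hepatocyte transcription factor, rose from 212, 182, 199 and 139 to 386, 458, 347 and 240, whereas Foxa2 fell by 0.65 on the log2 scale (adjusted p = 0.0449 by edgeR). With the length trend taken out the Foxa2 difference was -0.11. Both lncRNAs of this paragraph were chosen after their values were seen.

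**Figure D4:**
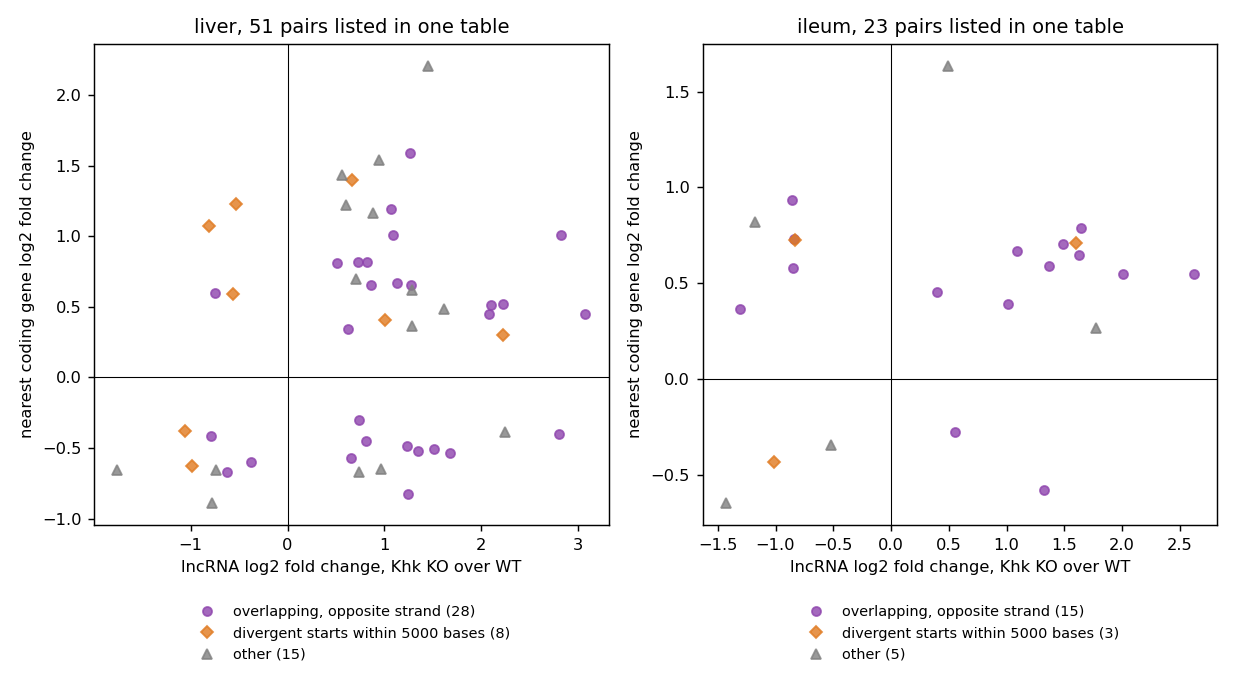
Log2 fold change of each lncRNA member (horizontal axis) against that of its nearest coding gene within 50000 bases (vertical axis), for the 51 pairs in liver and 23 in ileum in which both genes are listed, marked by arrangement. In liver 27 pairs lie in the upper right field and 8 in the lower left, and 12 have a higher lncRNA beside a lower coding gene.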

How the data were processed

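RNA of 32 libraries was measured, 4 per genotype in each of 4 organs, and each organ was analysed alone. Reads were aligned with HISAT2 2.0.5 to GRCm38 (mm10), per the submitters' processing notes. The counting tool, the annotation release and the test are not given in the sources used here. Per the labels' protocols, second strands were made with either a strand-marking or an unmarked nucleotide mix. For each organ the authors deposited raw read counts, a normalised signal (the count divided by a size factor), FPKM, a log2 fold change, a p-value and an adjusted p-value, for genes with an unadjusted p-value under 0.05, 6375 liver, 1567 duodenum, 2413 jejunum and 5187 ileum genes. Table reads ran from 1722220 to 14331517 per library. Total depth is unknown, since other genes were not analysed here.

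Counts were fitted with edgeR 4.0.16 (R 4.3.3; filterByExpr, quasi-likelihood F test, no replicate block) at the authors' size factors, because a scaling made on selected genes assumes that most do not differ. The adjustment of Benjamini and Hochberg ran over the 18225, 15615, 9881 and 16034 genes that the deposited p-values show the authors adjusted over. For the length trend, each library's lowess curve against log2 gene length (span 0.5) entered as an offset. A called gene has an edgeR adjusted p under 0.05. The fit was tested on simulated data. Coordinates are those of the deposited tables. Neighbours and shared exons came from GENCODE M21 (GRCm38), which gave the same coordinates for 116 of 121 liver members and 68 of 70 ileum members.

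Members and gene lists were chosen with earlier results of these data known. Named are the up to 6 members with the largest changes per direction and organ among those past 0.05 in the deposited adjusted p-value and without overlap, members of 3 or 4 organs, members on the lists, and overlapping or divergent pairs. The list of liver and gut lncRNAs gave no member. Alternatives were TMM and DESeq2 (1.42.0) size factors, no filter, DESeq2's Wald test, the length trend, a replicate block, adjustment over the table, leaving out each library, minimums of 10 and 50, and neighbour distances.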

Additional observations from a re-analysis of the deposited data

Results flagged for a closer look

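In groups of 4 libraries, 12 of 130 groups (both genotypes for 65 values of named members, leaving out the 24 named only for a neighbour pair) held 1 library far from the other 3, where chance gives about 1 in 20. The largest number involved WT replicate 1. It stood at 1908 normalised counts for 2900097C17Rik in liver, against 971 to 1122. In jejunum it stood at 202 for 2810001G20Rik, against 44.0 to 56.2, and at 1044 for Tmem250-ps, against 664 to 700. In ileum it stood at 242 for 2010320M18Rik, against 127 to 134, and at 1317 for Tmem250-ps, against 753 to 847.

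WT replicate 3 had 0 normalised counts of Gm44117 in liver, where the others had 15.1 to 16.1, 195 of 2010320M18Rik in liver, against 111 to 122, and 810 of Tug1 in duodenum, against 938 to 963. WT replicate 4 in ileum had 14.5 for Gm47469, against 3.73 to 5.39, and 97.3 for Etohd2, against 51.0 to 58.0. Malat1 was apart in 1 Khk KO library in 2 organs. Khk KO replicate 1 in jejunum was at 13300, against 33147 to 36834, and Khk KO replicate 2 in ileum at 52049, against 39208 to 40399.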

How the results depend on the processing

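The number of called members in liver (42) was 108 adjusted over the table alone (92.0% of all genes called), 77 by DESeq2's Wald test (72.0%) and 26 with a mean of at least 50 (50.9%). In ileum (14) it was 59 (95.3%), 37 (68.4%) and 9 (34.5%) in the same order, 6 with the length trend taken out (9.86%) and 2 with the replicate block (Gm15674 and Gm15657; 468 of 4657 genes). Leaving out 1 library gave 7 to 63 in liver and 1 to 26 in ileum, and 0 in duodenum and jejunum. Shares of all genes are given above for the highest liver and ileum counts only. DESeq2's Wald test called 1 member in jejunum (12.4% of all genes) and 0 in duodenum (2.21%). The replicate block gave 30 in liver (40.5%), 27 of them called without it. The correlation of deviations between same-numbered libraries was -0.102 to 0.0879 in liver and -0.151 to 0.00798 in ileum. It was -0.279 to 0.205 in duodenum and 0.0308 to 0.286 in jejunum, and was above 0.1 for every pair in no organ. Not every library correlated best with its own number in any organ. The labels do not say whether replicate numbers pair the libraries, and these correlations cannot decide it. With the length trend taken out, direction turned for Gm37494 in liver (-0.17), jejunum (-0.15) and ileum (-0.33), Kcnq1ot1 (-0.47), Meg3 (-0.0485), Fam120aos (0.0323) and Gm14097 (0.23) in liver, Tug1 in duodenum (-0.0112) and ileum (-0.14), and Tmem250-ps in jejunum (0.00902) and ileum (0.0282). Of the 89 values of named members, TMM, DESeq2 size factors and no filter changed no call, and of the 36 calls the block ended 16 and the length trend 22, 18 with the direction kept and 4 with it turned. The causes were not tested. The share of same-direction pairs was 63.6% to 67.4% in liver and 63.6% to 71.4% in ileum under the other distances and without shared exons. Genes with a larger p-value were not analysed here.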
